A study of Mus musculus with 4 samples.

Results

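Transcript signals of 10 genes of zinc handling were read in the hippocampus: the metallothioneins Mt1, Mt2 and Mt3, the SLC30 transporters Slc30a1, Slc30a3, Slc30a5 and Slc30a9, and the SLC39 transporters Slc39a6, Slc39a7 and Slc39a10. They were taken as every probe set that the array's annotation assigns to 1 of these symbols alone, which gave 16 of 45101 probe sets for 10 of 18194 genes. The tissue was the whole left hippocampus of 4 wild-type mouse samples, called 11, 13, 15 and 17, which the labels give as biological replicates of 1 group, with 1 Affymetrix array each. The labels name no treatment and no other genotype, and state neither age, sex nor strain. The values are log2 intensities, so a difference of 1 is a doubling of signal.

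Zinc is a cofactor of many proteins and, in part of the glutamatergic neurons, also a cargo of synaptic vesicles. The mossy fibres, the axons of dentate granule cells that end on CA3 pyramidal cells, are the hippocampal pathway best known for such vesicular zinc, which the transporter ZnT3 (Slc30a3) loads and which is released with glutamate. SLC30 proteins move zinc out of the cytosol, into organelles or out of the cell, SLC39 proteins move it into the cytosol, and metallothioneins are small cysteine-rich proteins that bind zinc and copper there. Transcription of metallothionein genes answers to metals through MTF1, which binds metal response elements, and to glucocorticoids and oxidative stress.

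Mt1, Mt2, Mt3 and their relative Mt4 are neighbouring genes, in the order Mt4, Mt3, Mt2, Mt1, on mouse chromosome 8. In RefSeq (assembly GRCm38.p6) the start of Mt2 lies 20011 bases after that of Mt3 and the start of Mt1 6471 bases after that of Mt2. The windows from 250 bases before to 30 bases from the annotated start are shown for these 3 genes and for Slc30a1, the zinc exporter of the cell surface, because Mt1, Mt2 and Slc30a1 are textbook targets of MTF1 and Mt3 is not induced by metals in the same way. Capitals mark the core of the metal response element, searched as TGCACNC and TGCGCNC on both strands, with no overlapping matches in these 4 windows.
Mt1, chr8:94178839-94179118, plus strand: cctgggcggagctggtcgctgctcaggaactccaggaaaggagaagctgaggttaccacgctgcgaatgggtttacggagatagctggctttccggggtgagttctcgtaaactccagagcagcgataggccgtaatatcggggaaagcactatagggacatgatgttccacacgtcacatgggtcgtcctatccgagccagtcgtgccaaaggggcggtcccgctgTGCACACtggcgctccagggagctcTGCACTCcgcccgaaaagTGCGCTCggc
Mt2, chr8:94172368-94172647, plus strand: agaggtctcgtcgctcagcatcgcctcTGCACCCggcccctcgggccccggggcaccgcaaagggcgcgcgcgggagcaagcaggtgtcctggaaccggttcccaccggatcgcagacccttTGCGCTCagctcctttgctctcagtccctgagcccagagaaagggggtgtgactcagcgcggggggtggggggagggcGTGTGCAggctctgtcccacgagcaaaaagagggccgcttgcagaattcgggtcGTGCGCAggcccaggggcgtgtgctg
Mt3, chr8:94152357-94152636, plus strand: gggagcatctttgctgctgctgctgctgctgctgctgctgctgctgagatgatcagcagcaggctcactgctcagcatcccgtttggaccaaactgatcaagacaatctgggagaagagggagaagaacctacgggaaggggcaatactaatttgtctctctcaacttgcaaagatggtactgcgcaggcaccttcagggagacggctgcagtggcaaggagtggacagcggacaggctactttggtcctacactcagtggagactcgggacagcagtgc
Slc30a1, chr1:191906531-191906810, plus strand: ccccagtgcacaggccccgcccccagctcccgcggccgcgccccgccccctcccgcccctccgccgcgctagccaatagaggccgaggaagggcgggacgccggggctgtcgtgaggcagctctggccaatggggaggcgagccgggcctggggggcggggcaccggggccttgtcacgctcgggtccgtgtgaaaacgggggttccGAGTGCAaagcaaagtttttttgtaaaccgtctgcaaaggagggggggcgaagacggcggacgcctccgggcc

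The Mt2 window held 4 matches, the Mt1 window 3, the Slc30a1 window 1 and the Mt3 window 0. Of 32817 RefSeq windows of the same 280 bases, 24.1% held at least 1 match, 1.73% at least 3 and 0.405% at least 4. The table had windows for 9 of the 10 genes, 11 in all, with Slc39a6 not among them. Beyond those 4 windows, 1 of the 2 windows of Slc30a3 and the window of Slc30a5 held 1 match each, and those of Slc30a9, Slc39a7 and Slc39a10 held 0. Of the Mt1 matches, 2 lie after the annotated start, at bases 3 to 9 and 21 to 27, and so does 1 of the Mt2 matches. Positions and counts hold for the start in the RefSeq table, and with another start the window would hold other bases. A match is a run of letters, and whether MTF1 binds there was not measured.

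**Figure D1:**
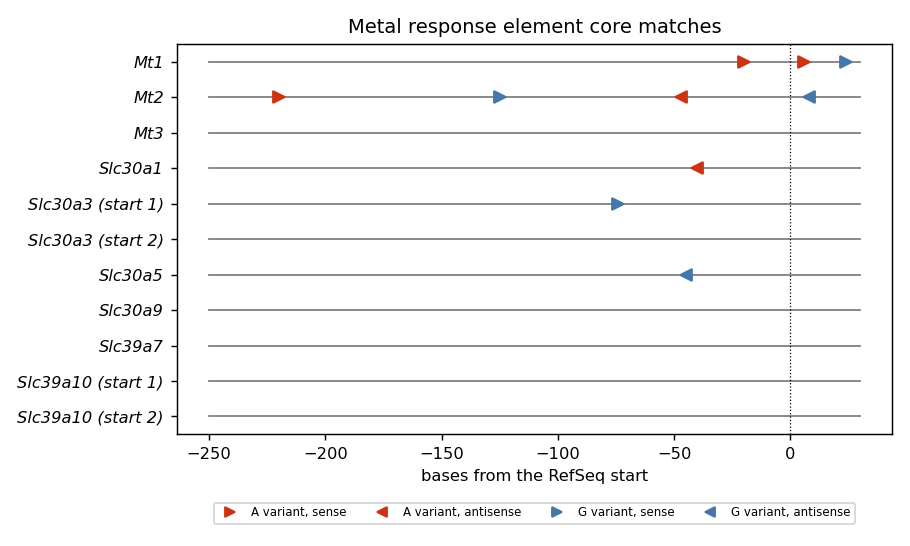
Positions of metal response element cores in RefSeq windows (GRCm38.p6) of 9 of the 10 genes, in bases from the annotated start (dotted line). Triangles point along the strand of the match and colours give the A (TGCACNC) and G (TGCGCNC) variants. Mt2 held 4 matches, Mt1 3 and Mt3 0.

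All 10 genes were detected in each of the 4 samples. The limit for detection was 6.41, the 95th percentile over 47 genes typical of organs such as testis, liver or skin, and 44.8% of all genes passed it. The genes were listed with earlier results of these data known, so their share is a description of them. Among the other 18 metallothionein, SLC30 and SLC39 genes, 9 passed, which made 19 of 28 for the 3 families. Each of the 10 genes had exactly 1 probe set above the limit, while 29% of all probe sets lay above it. That probe set gives the level of the gene below. Probe sets bind with different strength, so no gene's level is set against another's.

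**Figure D2:**
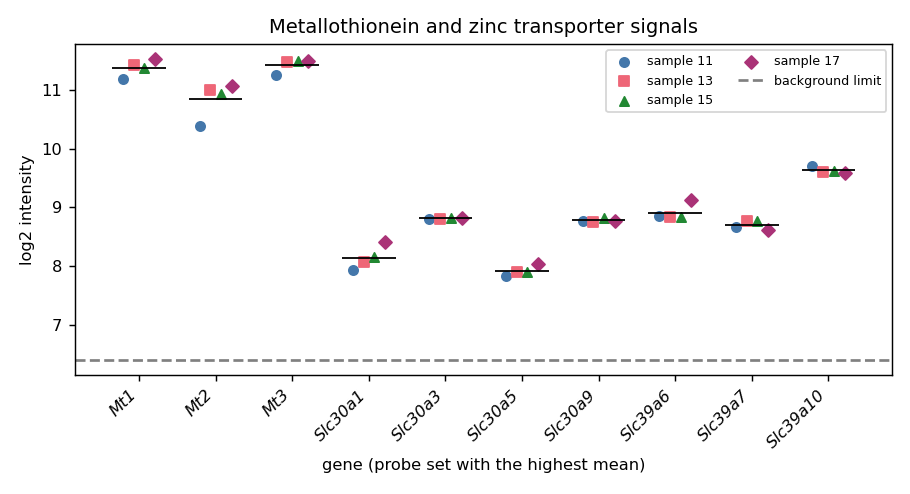
Log2 intensity of the 10 genes by sample, with the probe set of highest mean for each gene. Points are the 4 samples, bars their mean and the dashed line the background limit of 6.41. Every point lies above the limit, and the lowest single value of Mt2 (10.39) belongs to sample 11.

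The metallothionein transcripts were lowest in sample 11. Mt2, an inducible form found mainly in astrocytes in brain, had levels of 10.39, 11.00, 10.92 and 11.07 in samples 11, 13, 15 and 17, with a mean of 10.84 ± 0.31 (SD, n = 4). Mt1, which is induced together with Mt2, had levels of 11.18, 11.42, 11.38 and 11.53, with a mean of 11.38 ± 0.15 (SD, n = 4). Mt3, the brain-enriched form first described as a growth inhibitory factor, had levels of 11.25, 11.48, 11.50 and 11.50, with a mean of 11.43 ± 0.12 (SD, n = 4). Samples 13, 15 and 17 lay within 0.15 of each other for Mt1, 0.14 for Mt2 and 0.018 for Mt3. Between the highest and the lowest sample, the signal of Mt2 differed 1.60-fold, that of Mt1 1.27-fold and that of Mt3 1.19-fold. The probe set of Mt1 carries the suffix that the maker gives to sets matching more than one transcript, so part of its signal may come from related transcripts, and its second probe set stayed under the limit at 5.33 to 5.37.

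Averaged over the 3 metallothioneins, the deviations from each gene's own mean were -0.28, 0.083, 0.049 and 0.15 in samples 11, 13, 15 and 17. The median deviation of all genes above background was -0.045, -0.0038, 0.016 and 0.031 in the same samples. The span over the samples was 0.42 on the log2 scale and 0.0966 without sample 11, so this single array sets it. Sample 11 was lowest without a tie for 3 of 3 metallothioneins and 5 of all 10 genes, while 47.4% of the genes above background had their lowest value there without a tie. That sample being lowest is thus common on these arrays, and the size of the gap for Mt2 is less so: 98.9% of the genes above background had a smaller SD than Mt2, 82.1% a smaller one than Mt1 and 72.2% a smaller one than Mt3. Bright probe sets vary less, and the usual SD at the level of each gene was 0.0455 for Mt2, 0.0394 for Mt1 and 0.0388 for Mt3, below the measured SD of each. The deposited values were already normalized between arrays, with array medians of 4.67 to 4.71. Quantile normalizing again (-0.26 in sample 11) or centring on the medians (-0.30) could thus shift that sample only a little.

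**Figure D3:**
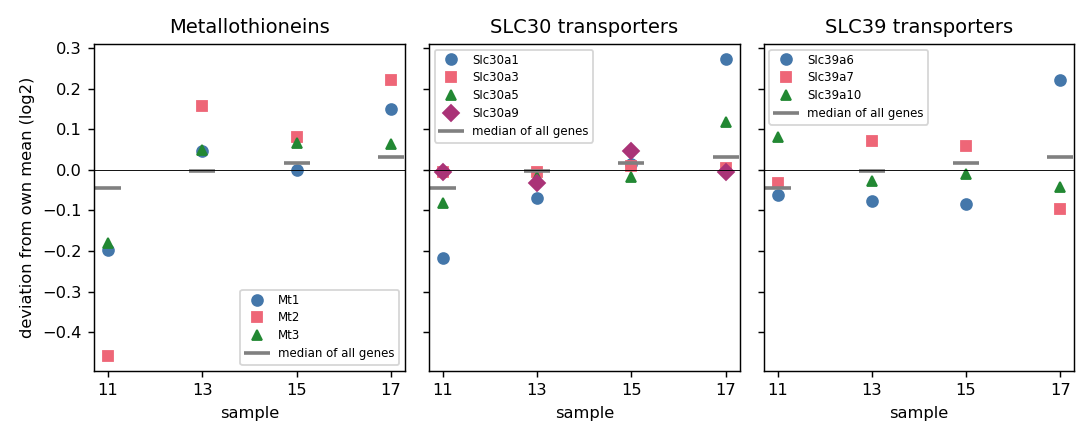
Deviation of each gene from its own mean (log2) in samples 11, 13, 15 and 17, for the metallothioneins (left), SLC30 transporters (middle) and SLC39 transporters (right). Grey bars are the median over all genes above background. Mt2 stands at -0.46 in sample 11, while Slc30a1 (0.27) and Slc39a6 (0.22) stand highest in sample 17.

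Slc30a3 had nearly the same level in every sample. The gene encodes ZnT3, the carrier that fills synaptic vesicles with zinc and is concentrated in mossy fibre terminals. Its levels were 8.80, 8.80, 8.82 and 8.81 in samples 11, 13, 15 and 17, with a mean of 8.81 ± 0.0075 (SD, n = 4), and the deposited values of samples 11 and 13 were identical. The usual SD at that level was 0.0719, and 1.7% of the genes above background had a smaller SD than Slc30a3. With the arrays quantile normalized again the SD was 0.020, with 4.88% of genes below it, and with median centring 0.021, with 3.97% below it.

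The genes that serve vesicular zinc beside Slc30a3 were detected at 9 of 9 in the list examined, against 44.8% of all genes. AP-3 is the adaptor complex that sorts ZnT3 to synaptic vesicles, and mice without its delta subunit lack vesicular zinc. The delta subunit Ap3d1 had a level of 9.74 ± 0.011 (SD, n = 4), the neuronal beta subunit Ap3b2 8.98 ± 0.017 and its ubiquitous counterpart Ap3b1 9.09 ± 0.057. The medium subunit Ap3m1 stood at 7.44 ± 0.040. Slc17a7, the vesicular glutamate transporter VGLUT1 found on zinc-filled vesicles, had a level of 10.22 ± 0.041. The median SD of the brightest probe sets of these 9 genes was 0.037, and the median of the usual SD at their levels was 0.0676. Several of these genes, among them Ap3b2, Ap3d1 and Ap3m1, had identical deposited values in different samples. Such ties make an SD smaller. A second probe set of the medium subunit Ap3m2, also above background, had levels of 7.80, 7.52, 7.09 and 7.01 in samples 11, 13, 15 and 17, with an SD of 0.37, while the brighter one had an SD of 0.034.

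Markers of the cells at both ends of the mossy fibres were read in the same samples. Of 9 granule cell markers 6 were above background, and their mean deviation was -0.031, -0.081, -0.098 and 0.21 in samples 11, 13, 15 and 17, with a median SD of 0.17. Of 5 CA3 markers 3 were above it, with a mean deviation of -0.070, 0.025, 0.048 and -0.0027 in the same samples and a median SD of 0.070. Slc30a3 deviated by 0.0039 in sample 17, where the mean of the granule cell markers was highest, and by -0.0048 there after a second quantile normalization. Not every granule cell marker was highest in that sample. The CA1 markers had a mean deviation of -0.12, 0.070, 0.19 and -0.14 in samples 11, 13, 15 and 17. In whole tissue, fewer cells of a type and less RNA per cell cannot be told apart. ZnT3 is also made by other zinc-containing neurons of the hippocampus, and the share of the signal that comes from granule cells was not tested.

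The other SLC30 transporters ranged from steady to variable. Slc30a1, known as ZnT1, had levels of 7.93, 8.07, 8.16 and 8.42 in samples 11, 13, 15 and 17, with a mean of 8.14 ± 0.21 (SD, n = 4). Slc30a5, a transporter of the Golgi and secretory vesicles that acts in a pair with ZnT6, had levels of 7.83, 7.89, 7.90 and 8.03, with a mean of 7.91 ± 0.084 (SD, n = 4). Both were lowest in sample 11 and highest in sample 17, with a 1.41-fold span for Slc30a1 and a 1.15-fold span for Slc30a5. Slc30a9, known for moving zinc out of mitochondria, had levels of 8.77, 8.75, 8.83 and 8.77, with a mean of 8.78 ± 0.033 (SD, n = 4). The SD of Slc30a1 was larger than that of 94% of genes above background, and that of Slc30a9 larger than that of 12.3%. Over the 4 SLC30 genes the mean deviation was -0.078 in sample 11 and 0.097 in sample 17, a span of 0.18 that came to 0.0906 without sample 17. The 3' minus 5' difference of Gapdh, which grows as signal towards the 5' end is lost, was 0.62, 0.62, 2.64 and 3.79 in samples 11, 13, 15 and 17, and like Slc30a1 it was highest in sample 17. With that difference as a covariate, the unadjusted limma p for the spread of Slc30a1 was 0.306, against 0.114 without it (adjusted p 0.932 and 0.888). The unadjusted p also rose for Slc30a5 and Slc39a6 and fell for the other members. For Mt2 it went from 0.0153 to 0.00822, for Mt1 from 0.0571 to 0.0496 and for Mt3 from 0.0819 to 0.0575 (limma). The covariate leaves fewer residual degrees of freedom and the prior was fitted anew. A rise or fall of these p-values therefore cannot be read as a change in spread. The part of transcript ends in these values was not tested.

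Among the SLC39 transporters, the brightest probe set of Slc39a6 was highest in sample 17. It did not pass the test of spread (limma, adjusted p = 0.888), and neither did any other probe set on the array. Slc39a6, which encodes ZIP6 of the cell surface, had levels of 8.85, 8.83, 8.83 and 9.13 in samples 11, 13, 15 and 17, with a mean of 8.91 ± 0.15 (SD, n = 4). Its next probe set, just under the limit, had levels of 6.31, 6.26, 6.08 and 6.10 and so was highest in sample 11, not in sample 17. Slc39a10, whose product ZIP10 pairs with ZIP6, had levels of 9.71, 9.60, 9.62 and 9.59, with a mean of 9.63 ± 0.056 (SD, n = 4). The brightest probe sets of the partners had their highest values in different samples, 17 for Slc39a6 and 11 for Slc39a10. The SD of Slc39a10 lay below the usual 0.0614 at its level. Slc39a7, or ZIP7, which releases zinc from the endoplasmic reticulum, had levels of 8.67, 8.77, 8.76 and 8.61, with a mean of 8.70 ± 0.079 (SD, n = 4), and its probe set too is of the kind that matches more than one transcript. The mean deviation of the 3 genes spanned 0.040, 0.00727 without sample 17 and 0.639 when each gene was given the median of its probe sets.

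**Figure D4:**
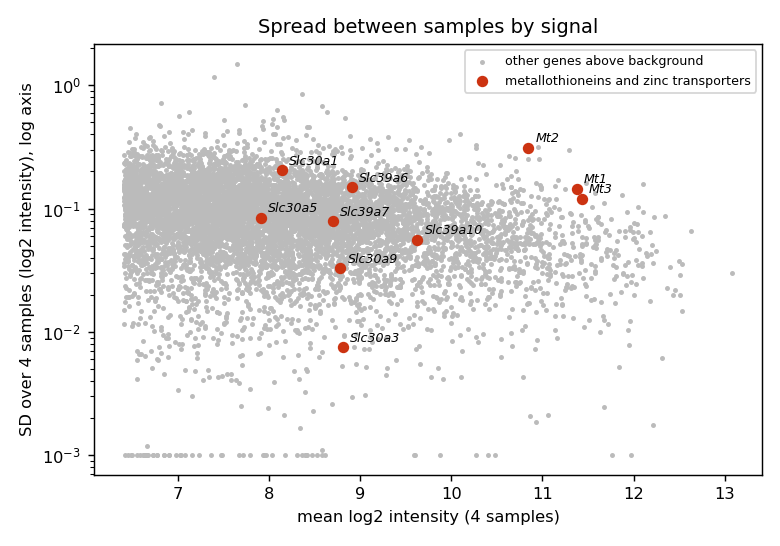
SD over the 4 samples against mean log2 intensity for the genes above background (grey), with the 10 genes in red and a log axis for the SD; 57 genes with an SD under 0.001 are drawn at that value. Mt2 (SD 0.31) lies near the upper edge at its level and Slc30a3 (SD 0.0075) near the lower edge.

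The spread between samples was tested against that of probe sets of like brightness. With limma, 0 of the 10 probe sets and 0% of 13062 probe sets above background passed at an adjusted p of 0.05. Mt2 was the 1 gene of the 10 with an unadjusted p under 0.05 (limma, unadjusted p = 0.0153, adjusted p = 0.888), while 2.9% of all probe sets had one, 379 in number. Mt1 and Mt3 had the same limma adjusted p of 0.888 and Slc30a3 one of 1. With 4 arrays such a result does not show that the samples were alike, and the p-values measure only the spread between these samples, which may be technical. The median SD of the 10 genes was 0.10, against 0.085 for all genes above background. A second test asked if several probe sets of 1 gene shared their differences between samples. It needs 2 of them above background, so it could be run on 0 of the 10 genes, and 0.781% of 2562 other genes passed it.

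The second probe set of Slc39a10 was dim and differed most between samples among the 16. It stood at 6.06, 5.51, 4.07 and 3.75 in samples 11, 13, 15 and 17, below the limit in each, with an SD of 1.11 and a 4.95-fold span. The 3' minus 5' difference of Gapdh was low in samples 11 and 13 and high in samples 15 and 17. That of beta-actin was 1.10, 1.25, 1.93 and 2.33. Both controls were high in the samples where the probe set was low, 15 and 17. Over the array, 25 probe sets, itself included, had an SD at least as large. Of these, 22 were lowest in sample 17 and 11 were highest in sample 11. The share of all probe sets lowest in sample 17 was not computed, so these counts are a description. The brighter probe set of Slc39a10 spanned 1.09-fold. The part of transcript ends in these values was not tested. With samples 15 and 17 omitted, all 10 genes were still above background.

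**Figure D5:**
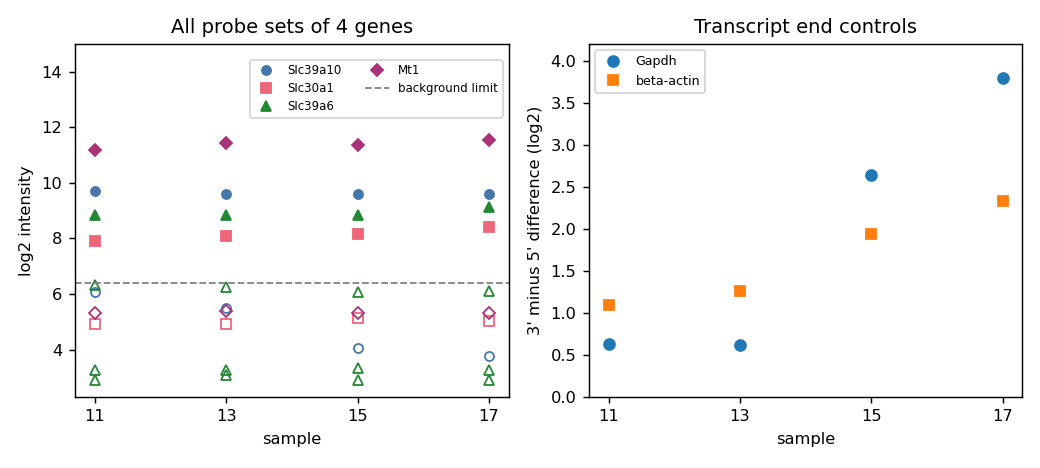
Left, log2 intensity of every probe set of Slc39a10, Slc30a1, Slc39a6 and Mt1, with filled points for the set of highest mean, open points for the others and a dashed background limit of 6.41. Right, the 3' minus 5' difference of Gapdh and beta-actin in the same samples. The second set of Slc39a10 stands at 6.06 in sample 11 and 3.75 in sample 17.

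The rest of the metallothionein, SLC30 and SLC39 families was detected in part. Above background were Slc30a4 at 8.23 ± 0.053, Slc30a6 (the partner of Slc30a5) at 7.22 ± 0.20 and Slc30a7 at 7.06 ± 0.13 (SD, n = 4 each). So were Slc39a1 at 7.57 ± 0.27, Slc39a3 at 7.74 ± 0.041 and Slc39a9 at 7.32 ± 0.14. Slc39a11 stood at 7.25 ± 0.12, Slc39a12, a transporter known from brain, at 7.81 ± 0.13, and Slc39a14 at 7.34 ± 0.11. The 9 under the limit were Mt4 of squamous epithelia at 3.51, Slc30a2 at 3.11, Slc30a8 of pancreatic islets at 3.13, Slc30a10 at 5.26, Slc39a2 at 5.96, Slc39a4 of the gut at 3.52, Slc39a5 at 4.53, Slc39a8 at 3.20 and Slc39a13 at 6.14. A level under the limit does not show that a transcript was absent. Of the 9 detected, 7 were lowest in sample 11 without a tie and 7 highest in sample 17, against 47.4% and 38.9% of the genes above background.

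Mtf1, the zinc-sensing factor of metallothionein genes, had levels of 7.14, 7.22, 7.13 and 7.25 in samples 11, 13, 15 and 17, with a mean of 7.18 ± 0.057 (SD, n = 4). Its highest and lowest samples differed by 0.11, against 0.68 for Mt2. The activity of the MTF1 protein was not measured, and its part in the Mt2 values was not tested. Of 7 genes on which synaptic zinc acts, 5 were measured and 3 detected. The NMDA receptor subunit Grin2b stood at 9.79 ± 0.096, the scaffold Shank3 at 9.94 ± 0.15 and the acid-sensing channel Asic1 at 7.36 ± 0.051. The receptor Gpr39, which zinc activates, lay under the limit at 4.01 ± 0.12, and the NMDA receptor subunit Grin2a, which carries a high-affinity zinc site, at 3.89 ± 0.10. Probe sets bind with different strength, so these values do not show that either transcript was absent or scarce.

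Genes that answer to other inducers of metallothioneins were read in the same samples. Of the glucocorticoid-responsive genes 9 of 10 were above background, with a mean deviation of -0.11, 0.072, -0.12 and 0.16 in samples 11, 13, 15 and 17. In sample 15 this list was low where the metallothioneins were at 0.049. Its first 4 genes were Sgk1 at 9.19 ± 0.34, Fkbp5 at 8.59 ± 0.021, Tsc22d3 at 8.30 ± 0.27 and Ddit4 at 8.60 ± 0.31 (SD, n = 4 each). Of the 9 detected, 2 were lowest in sample 11, against 47.4% of the genes above background. Another 5 were lowest in sample 15 and 2 in sample 17, for which the shares over all genes were not computed. Of the oxidative stress genes of the Nrf2 pathway 5 of 8 were above background, and their mean deviations lay between -0.012 and 0.018. Gclm and Gclc, which encode the subunits of the first enzyme of glutathione synthesis, stood at 8.002 ± 0.099 and 8.13 ± 0.028, while Hmox1 (4.97 ± 0.088) and Nqo1 (4.40 ± 0.056) lay under the limit. Of the acute phase genes 2 of 6 were above it, and they deviated by -0.13, 0.20, 0.060 and -0.13. Serpina3n, a mark of reactive astrocytes, stood at 7.63 ± 0.19, while Lcn2 (2.69 ± 0.094), Saa3 (3.78 ± 0.062) and Socs3 (4.60 ± 0.068) lay under the limit. The 6 immediate early genes, which neuronal activity induces, deviated by -0.29, 0.21, -0.17 and 0.24. Among them Fos stood at 8.09 ± 0.63, Arc at 8.41 ± 0.39, Egr1 at 10.69 ± 0.14 and Junb at 6.70 ± 0.26. All 8 astrocyte markers were detected, with deviations of -0.092, 0.0078, 0.020 and 0.065 in samples 11, 13, 15 and 17. Of the 8, 4 were lowest in sample 11, against 47.4% of the genes above background, among them Gfap, the astrocyte filament protein, at 9.98, 10.49, 10.25 and 10.44, while the glutamate transporter Slc1a2 was highest there at 12.04, 11.93, 11.92 and 11.81. The part of these lists in the metallothionein values was not tested.

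The genes whose pattern over the 4 samples came closest were found by the root mean square difference of the deviations from the gene's own mean, among 8152 genes above background. For Mt1 they were Egr1, an activity-induced transcription factor, at 0.00492, Abitram at 0.00971 and St7l at 0.0111, and 318 genes lay within 0.05. Egr1 stood at 10.50, 10.74, 10.70 and 10.84. For Mt2 they were Kti12 at 0.0369, Bcar3 at 0.042 and Sqle at 0.0537, and 2 genes lay within 0.05. Mt3 lay at 0.0548 from Mt1, the 418th closest of the 8152 genes, and Mt2 at 0.152, the 6550th. This distance depends on the size of the deviations as well as on their order over the samples. Mt1 and Mt2 had the same order, rising from sample 11 through 15 and 13 to 17. The deviations of Mt2 were larger, at -0.46 against -0.20 in sample 11. For Slc30a3 the closest were Lrrc4 at 0.00115, Abcf1 at 0.00302 and Ppp2ca at 0.00349, with 2543 genes within 0.05. With 4 samples these distances are descriptions.

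The tissue label was set against cell type markers. Against 44.8% of all genes, 5 of 5 neuronal and 5 of 5 CA1 markers were above background, along with 4 of 4 measured oligodendrocyte and 3 of 4 microglial markers. Endothelial markers were at 2 of 4, mural and meningeal markers at 4 of 5, ependymal markers at 1 of 3 and blood markers at 0 of 3. From the choroid plexus, Ttr alone of 7 genes was detected, at 7.36, 9.84, 6.86 and 6.54 in samples 11, 13, 15 and 17. The medians of the arrays lay between 4.67 and 4.71, and having only 4 of them limits how precise any value can be.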

How the data were processed

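Total RNA of the 4 samples was labelled with biotin and hybridised to 1 array each, per the labels. For each probe set the authors deposited a log2 intensity made with RMA, per the submitters' processing notes, which corrects background, normalizes between arrays and summarises probes. Its version, software and settings are not stated, and depth has no counterpart on an array.

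Of 45101 probe sets the array annotation gave 34958 1 gene symbol, 932 several and 9211 none. Symbols were updated through Entrez identifiers of RefSeq GRCm38.p6 (34754 matched), and probe sets with several symbols named no gene. Where several probe sets carried a gene's symbol alone, the one with the highest mean gave its level.

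The members and lists were chosen with earlier results of these data known. Of 50 genes not expected in hippocampus, 47 were measured and set the background limit. The spread test took all 13062 probe sets above background in limma (intercept only, eBayes with trend and robust): the residual variance over the prior variance was an F statistic (degrees of freedom 3 and 2.21), adjusted by Benjamini-Hochberg and called at 0.05. Agreement of probe sets was tested as the mean square between samples over the interaction of sample and probe set, which limma squeezed. Both were run on simulated data. There the spread test was required to find planted probe sets only where the other variances were equal, which differs from these arrays. Nothing in the labels says how the replicates were obtained beyond that they are biological.

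Named genes are all members, the rest of the 3 families, the first 4 measured genes of each companion list, and the 3 genes closest in pattern to Mt1, Mt2 and Slc30a3. Lists of cell type markers are given by counts and deviations. Slc17a7 and Asic1 fall outside this rule, and they, Gfap, Slc1a2, Ap3m2 and Ttr were named after their values were seen. Alternatives were other background limits, normalizations, priors, thresholds and omitted samples. The software was limma 3.58.1 in R 4.3.3, with figures from matplotlib 3.10.9 under Python 3.11.15.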

Additional observations from a re-analysis of the deposited data

Results flagged for a closer look

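Each value was set against Dixon's criterion for 4 samples, which marks a sample whose gap to its nearest neighbour takes up most of the range. Chance marks about 1 in 20 groups, and 15.5% of all genes above background were marked here. Of 29 items 5 were marked. The items include dim probe sets, family means and the Gapdh difference, so their share is not set against the 15.5%. Mt3 was low in sample 11 at 11.25. Slc39a6 was high in sample 17 at 9.13. The others were dim probe sets under the background limit: the second set of Mt1 at 5.37 in sample 13, and 2 sets of Slc39a6 at 3.34 in sample 15 and 3.10 in sample 13. For the sets of Mt1 at 5.37 and of Slc39a6 at 3.34, the other 3 samples had equal values.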

How the results depend on the processing

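All 10 genes were above background under each background limit, normalization and omission tried, and 9 of 10 when each gene was given the median of its probe sets, where Slc39a6 stood at 4.73. The limma test of spread called 0 members and 0 probe sets under any of its settings, and the smallest adjusted p over all probe sets was 0.44, with samples 15 and 17 omitted. With so few arrays the test could hardly call any probe set, so the lack of calls under each setting adds little. The metallothionein span was 0.0966 to 0.424 with 1 sample left out and lowest without sample 11. The SLC30 span was 0.0906 to 0.175 with 1 sample left out, lowest without sample 17, and 0.0464 with samples 15 and 17 omitted, an alternative added after seeing the data. The SLC39 span was 0.0723 with median centring, 0.00727 to 0.04 with 1 sample left out, 0.00727 with samples 15 and 17 omitted, and 0.639 with the median of probe sets, which brings in the dim second set of Slc39a10. The agreement test over all genes gave 20 calls, 37 without squeezing, 13 without the filter on dim sets, 128 at a threshold of 0.1, 10 with quantile normalization, 77 with median centring and 3 to 9 with 1 sample left out; the cause was not tested. No paired analysis was possible because all samples form 1 group. Without the filter on dim sets, 4 of the 10 genes could enter the agreement test, with adjusted p of 0.637 to 0.929 (limma squeezing).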
